A study of Mus musculus with 12 samples.

Results

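The 10 genes described here encode receptors of the tumour necrosis factor (TNF) family: Tnfrsf9, Tnfrsf4, Tnfrsf18, Cd27, Tnfrsf1a, Tnfrsf1b, Tnfrsf14, Fas, Tnfrsf25 and Tnfrsf26. They were taken by symbol from the authors' table of 26629 genes, and all 10 have a row there with a value for each of the 12 libraries. RNA sequencing was used on sorted C57BL/6 mouse T cells in 4 groups of 3 libraries, and every mouse carried floxed alleles of Lrf (Zbtb7a), which encodes the zinc finger transcription factor LRF. The control mice lacked the Cd4-Cre transgene. The KO mice carried it, and the Cd4 regulatory elements that drive it act in developing T cells. Control IELp and KO IELp were thymic precursors of intraepithelial lymphocytes, sorted for TCRβ, CD122, H-2Kb and high CD5 and PD-1, and for the lack of CD4, CD8α and CD44. Control IELs were gut intraepithelial lymphocytes sorted for CD45, TCRβ and CD8α without CD4 or CD8β. KO spleen cells passed the same CD8αα gate but were splenocytes, so genotype and tissue cannot be told apart between them and control IELs. The labels give no age, and they do not say that libraries of a group came from separate animals, so p-values measure the spread between these libraries, which may be technical.

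TNF family receptors sit on the cell surface and are engaged by ligands that form trimers. Some members recruit TRAF adaptor proteins and activate NF-κB, which in T cells supports survival and costimulation. Others carry a cytoplasmic death domain, through which adaptors such as FADD and TRADD link the receptor to caspases or to NF-κB. Thymocytes under strong antigen receptor signalling, as in agonist selection, are known to raise several of these receptors.

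Libraries held between 13432598 and 19947734 counts assigned to genes. Zbtb7a, the targeted gene, stood at 75.4 ± 6.27 counts per 1000000 gene counts (CPM; SD, n = 3) in control IELp, 45.5 ± 4.66 in KO IELp, 111 ± 8.91 in control IELs and 61.3 ± 2.13 in KO spleen cells, and the deleted part of the gene cannot be read from counts per gene. All 8 T cell markers were detected in each group, though some were near the floor. Cd5 was at 0.893 ± 0.732 CPM in control IELs, and Thy1 at 1.63, 0.810 and 1.55 CPM in control IELp, KO IELp and control IELs. Cd4 and Cd8b1 stood at no more than 7.42 and 6.18 CPM in any group mean. Control IEL replicate 3 stood apart from the other libraries of its group: counts differed with a chi-square per degree of freedom of 13.0 and 18.2 against replicates 1 and 2, which differed from each other by 4.30. The summed level of 12 gut epithelial markers reached 519, 574 and 712 CPM in replicates 1, 2 and 3 of the control IELs, most of it from Cdh1, against 14.0 to 75.6 CPM in all other libraries, and Krt20 was at 4.83 ± 4.47 CPM in control IELs.

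Of the 10 genes, 6 lie on mouse chromosome 4 between chr4:145213463 and chr4:156028895 (mm10), 2 on chromosome 6, 1 on chromosome 7 and 1 on chromosome 19. Promoter windows, from 250 bases before to 50 bases after a start site, were matched in RefSeq (GRCm38.p6) for 9 of the 10 genes. Those of the 3 matched genes whose level ranged most widely between groups are printed 5′ to 3′ on the strand of the gene, to show what the start sites of receptors with such different profiles look like. Tnfrsf9 and Tnfrsf25 each have 2 windows, and the one with more of the motifs below is shown: the other Tnfrsf9 window holds none of the 3, and the other Tnfrsf25 window holds the NF-κB-like motif alone. Capitals mark matches, on either strand, to an NF-κB-like motif (GGG, 5 bases of any kind, CC), an AP-1 motif (TGANTCA) or a Runx motif (TGTGGT). The Tnfrsf9 window spans chr4:150927749-150928048 on the plus strand, the Tnfrsf25 window chr4:152115684-152115983 on the plus strand, and the Tnfrsf1a window chr6:125349473-125349772 on the plus strand.
Tnfrsf9: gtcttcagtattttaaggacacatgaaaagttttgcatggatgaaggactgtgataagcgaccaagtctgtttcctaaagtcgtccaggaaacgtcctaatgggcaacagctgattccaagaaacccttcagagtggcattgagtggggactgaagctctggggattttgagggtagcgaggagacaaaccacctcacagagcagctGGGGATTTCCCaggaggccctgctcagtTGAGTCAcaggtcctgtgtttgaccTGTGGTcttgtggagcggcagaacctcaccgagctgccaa
Tnfrsf25: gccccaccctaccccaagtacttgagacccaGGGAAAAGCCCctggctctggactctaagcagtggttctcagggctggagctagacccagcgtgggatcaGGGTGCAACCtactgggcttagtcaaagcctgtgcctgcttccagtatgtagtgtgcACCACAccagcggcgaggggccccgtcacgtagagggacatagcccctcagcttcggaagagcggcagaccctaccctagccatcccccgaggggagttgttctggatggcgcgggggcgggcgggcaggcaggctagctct
Tnfrsf1a: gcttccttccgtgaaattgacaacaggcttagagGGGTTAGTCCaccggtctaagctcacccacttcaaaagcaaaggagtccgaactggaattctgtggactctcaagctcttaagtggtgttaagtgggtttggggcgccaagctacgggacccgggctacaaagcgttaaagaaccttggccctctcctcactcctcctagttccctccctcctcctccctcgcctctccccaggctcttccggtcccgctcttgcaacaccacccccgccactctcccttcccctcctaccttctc
In the Tnfrsf9 window the NF-κB-like matches GGGGATTTCC and GGGATTTCCC overlap and begin 43 and 42 bases before the start site, the AP-1 match begins 15 bases before it, and the Runx match begins at offset 10, counted from 0 at the start site. The Tnfrsf25 window holds NF-κB-like matches that begin 219, 218 and 149 bases before the start site and a Runx match 92 bases before it. The Tnfrsf1a window holds 1 NF-κB-like match, 216 bases before the start site, and neither of the other motifs. Among all 32851 windows of 300 bases, 50.8% held the NF-κB-like motif, 7.81% the AP-1 motif and 16.8% the Runx motif. Of the 11 windows of the 9 matched receptor genes, 8 held the NF-κB-like motif, 2 the AP-1 motif (in Tnfrsf9 and Fas) and 2 the Runx motif (in Tnfrsf9 and Tnfrsf25). A T-box motif (TCACACC) was found in 0 of the 11 and in 3.98% of all windows, and an Ets motif (CCGGAA) in 3 of the 11 and in 14.9% of all windows. These matches describe the letters of the windows and show no binding.

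Per kilobase of exon, a scale on which genes can be set beside each other, transcripts of 4 receptors made up most of the summed level in each group: Tnfrsf1b, Tnfrsf9, Cd27 and Tnfrsf18. The summed level of the 10 genes was 688 ± 19.5 CPM per kb (SD, n = 3) in control IELp and 656 ± 7.25 in KO IELp. It was 423 ± 9.37 in control IELs and 400.5 ± 14.9 in KO spleen cells, so both CD8αα groups lay below both IELp groups. Tnfrsf1b held the largest share in 3 groups, with 28.7% ± 0.194 in control IELp, 31.9% ± 0.722 in KO IELp and 42.7% ± 0.833 in control IELs. In KO spleen cells Cd27 held the largest share, 30.8% ± 0.653, and Tnfrsf1b 18.5% ± 0.417. Tnfrsf9 held 26.5% ± 1.36 and 25.4% ± 0.490 of the sum in control and KO IELp but 13.0% ± 0.568 in control IELs and 9.87% ± 0.418 in KO spleen cells. Tnfrsf25 was below 0.4% of the sum in the other groups and 7.34% ± 0.836 in KO spleen cells. In bulk libraries such as these, fewer cells that express a gene and less of its RNA per cell cannot be told apart.

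**Figure D1:**
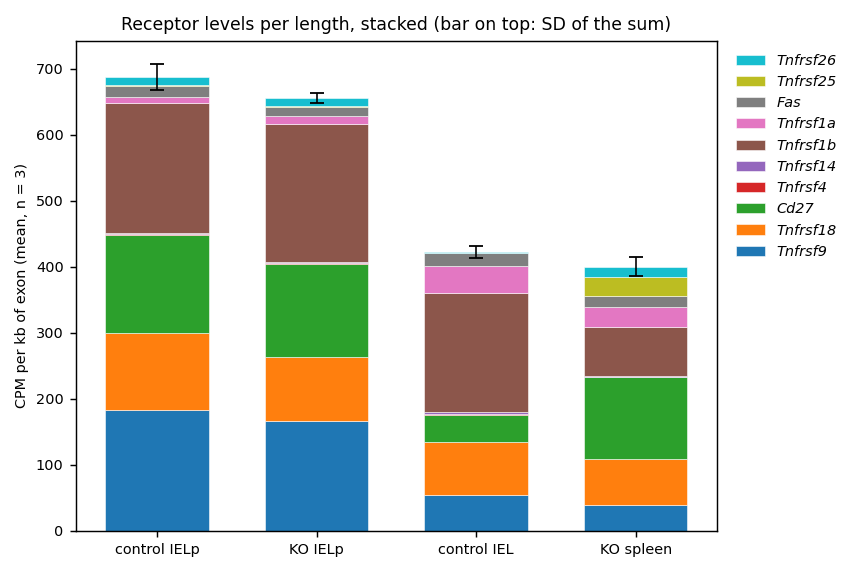
Mean level of each of the 10 receptors in CPM per kb of exon, stacked by group (n = 3), with the SD of the sum as a black bar. The IELp columns reach 688 and 656 CPM per kb and the CD8αα columns 423 and 400.5, and the Tnfrsf25 block is visible only in KO spleen cells.

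Among the costimulatory receptors, Tnfrsf9 (4-1BB), a receptor raised on activated T cells, lies at chr4:150914562-150946102 on the plus strand. Control IELp replicates 1 to 3 held 517, 521 and 452 CPM of it, and KO IELp held 456, 455 and 449 CPM. In control IELs it was at 150.3, 139 and 159 CPM, and in KO spleen cells at 108, 108 and 106 CPM. All 6 IELp libraries lay above all 6 CD8αα libraries, the IELp groups overlapped, and KO spleen cells were the lowest group without overlap.

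Cd27, a costimulatory receptor that supports T cell survival, lies at chr6:125232622-125237010 on the minus strand, and 5.54% of its exon bases overlap Mir8113. Control IELp stood at 335, 353 and 352 CPM, with KO IELp at 331, 338 and 323 CPM. It was 97.8, 91.7 and 105 CPM in control IELs and 273, 299 and 291 CPM in KO spleen cells. Control IELs were the group apart for Cd27, with every library under 106 CPM while the libraries of the other groups were between 273 and 353 CPM. The IELp groups overlapped, and KO spleen cells lay below both.

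Tnfrsf18 (GITR), known for its high level on regulatory T cells, lies at chr4:156026164-156028895 on the plus strand. Of its exon bases 27.2% overlap the antisense gene Gm16008, and since the library kit does not mark strand, reads of the pair cannot be told apart there. Its level was 183, 173 and 178 CPM in control IELp, 147, 141 and 153 in the KO IELp, 113, 111 and 137 CPM in control IELs and 101, 109 and 108 CPM in KO spleen cells. The groups stood in that order with no overlap between neighbours, and the whole range was narrower than for Tnfrsf9. Tnfrsf4 (OX40), a receptor of activated T cells at chr4:156013843-156016612 whose end lies 9551 bases before the start of Tnfrsf18, was near the detection limit, with 7 to 28 counts in a library. Its level was between 0.450 and 1.64 CPM in all 12 libraries, and neighbouring groups in its order overlapped.

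Since Tnfrsf18 marks regulatory T cells, the summed level of 10 other markers of those cells is set beside it. It was 485 to 569 CPM in control IELp, 447 to 492 in KO IELp, 322 to 485 in control IELs and 278 to 297 in KO spleen cells, with Lrrc32 at 0 in control IELs. Ikzf2 made up most of that sum, with 379 ± 35.8 CPM in control IELp, while KO spleen cells held 216 ± 5.36. The markers differed in their order of groups. Foxp3 was at 39.6 ± 4.93 CPM in control IELp, while KO spleen cells had 7.79 ± 1.24 CPM. Izumo1r, in contrast, had 31.1 ± 3.79 CPM in control IELp while KO spleen cells reached 37.8 ± 1.78, and Ctla4 was at 3.67 ± 1.57 CPM in control IELp and 43.0 ± 13.1 in control IELs. The part of such cells in the Tnfrsf18 and Tnfrsf9 levels was not tested.

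The receptors for TNF itself are Tnfrsf1b (TNFR2), which recruits TRAF proteins and has no death domain, and Tnfrsf1a (TNFR1), which has one. Tnfrsf1b, at chr4:145213463-145246870 on the minus strand, reached 754, 774 and 729 CPM in control IELp, with KO IELp at 774, 798 and 828 CPM. It was at 684, 687 and 694 CPM in control IELs and at 274, 292 and 284 CPM in KO spleen cells. KO spleen cells were the group apart, and the other 9 libraries were between 684 and 828 CPM. Tnfrsf1a, at chr6:125349362-125362484 on the plus strand, was lowest in control IELp, with 26.1, 24.2 and 24.7 CPM, and KO IELp had 30.3, 29.6 and 31.1 CPM. It was at 115, 108 and 97.6 CPM in control IELs and 75.6, 78.5 and 84.3 CPM in KO spleen cells. All its CD8αα libraries lay above all its IELp libraries, where Tnfrsf9 had the IELp libraries above.

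Tnfrsf14 (HVEM), the receptor of Tnfsf14 (LIGHT) that also binds BTLA and CD160, lies at chr4:154921933-154928563 on the minus strand. Its level was low, at 2.25, 3.94 and 2.21 CPM in control IELp, 2.84, 1.69 and 1.42 in the KO IELp, 4.85, 5.47 and 3.86 CPM in control IELs and 1.75, 3.02 and 2.46 CPM in KO spleen cells. Control IELs had the highest mean, and their lowest library lay just under the highest control IELp library.

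Death domain receptors besides Tnfrsf1a are Fas and Tnfrsf25. Fas, the receptor of Fas ligand at chr19:34290666-34327772 on the plus strand, had levels of 33.5, 37.0 and 33.0 CPM in control IELp, and those of KO IELp were 25.9, 27.5 and 27.7 CPM. It was at 47.5, 42.8 and 27.5 CPM in control IELs and 28.8, 34.6 and 32.2 CPM in KO spleen cells. The low control IEL value belongs to replicate 3, the library that stood apart in its group, and the control IELs overlapped every other group.

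Tnfrsf25 (DR3), the receptor of Tnfsf15 (TL1A), lies at chr4:152115934-152120119 on the plus strand. It had 18, 16 and 17 counts in control IELp replicates 1 to 3 and 84, 71 and 135 counts in KO IELp. It had 2, 0 and 0 counts in control IELs and 1245, 1155 and 1039 counts in KO spleen cells. In CPM these were 1.23, 0.941 and 1.25, then 5.55, 4.27 and 7.12, then 0.123, 0 and 0, and last 62.4, 61.2 and 77.3. The 4 groups followed each other with no overlap, and both KO groups lay above both control groups. Its gene starts 534 bases after the end of Plekhg5 on the same strand, and Plekhg5 was at 17.1 ± 2.87, 21.5 ± 1.36, 13.7 ± 1.65 and 36.8 ± 3.75 CPM in the same order of groups. Whether reads that run on from Plekhg5 reach Tnfrsf25 was not tested, and in control IELs Plekhg5 was present while Tnfrsf25 had 2 counts in all.

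Tnfrsf26, a receptor gene beside the TRAIL decoy receptor genes Tnfrsf22 and Tnfrsf23, lies at chr7:143607659-143628722 on the minus strand, and 3.33% of its exon bases overlap E230032D23Rik. Its level was 44.6, 41.6 and 38.1 CPM in control IELp, 34.3, 41.7 and 36.9 in the KO IELp, 6.08, 7.53 and 7.28 CPM in control IELs and 52.1, 43.5 and 56.8 CPM in KO spleen cells. As for Cd27, control IELs were the group apart, and the other groups overlapped with their neighbours. Tnfrsf22 followed the same order of groups, at 26.0 ± 5.38, 23.5 ± 3.48, 0.295 ± 0.101 and 33.1 ± 4.73 CPM, and Tnfrsf23 was at 1.53 ± 0.783, 1.65 ± 0.304, 0.187 ± 0.184 and 3.04 ± 0.875 CPM. The 3 genes are paralogs, so the split of reads between them is uncertain.

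**Figure D2:**
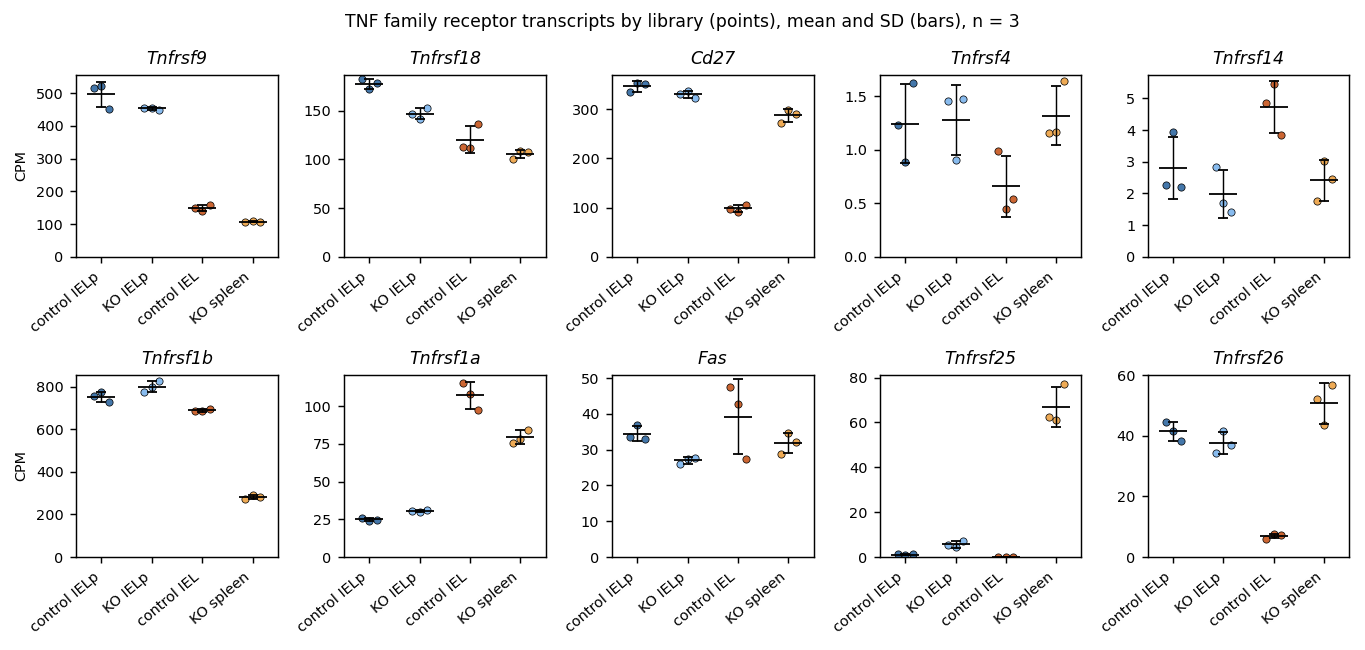
CPM of each of the 10 receptors in every library (points), with group mean and SD (bars, n = 3), on separate vertical axes from 0. Tnfrsf9 and Tnfrsf1a separate the IELp from the CD8αα groups in opposite directions, Cd27 and Tnfrsf26 are low in control IELs alone, Tnfrsf1b is low in KO spleen cells alone, and Tnfrsf25 is highest there.

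Comparing KO with control IELp asks what differs with genotype in the precursors. Tnfrsf25 was 5.05-fold higher in KO IELp, a log2 difference of 2.34 ± 0.29 (SE) with an adjusted p of 6.30e-05 in edgeR's quasi-likelihood test. From the counts, 290 against 51, the ratio per library size was 5.07 with an exact 95% interval of 3.76 to 6.97, which covers counting error only. Tnfrsf18 was lower by a log2 difference of -0.25 ± 0.06 (adjusted p = 0.0109), although its adjusted p was 0.0658 without KO IELp replicate 2. Of 10 regulatory T cell markers 3 were called lower in KO IELp too, where 6.58% of all tested genes were called lower. They were Capg (-0.72 ± 0.13, adjusted p = 0.00212), Lrrc32 (-1.10 ± 0.29, adjusted p = 0.0219) and Ctla4 (-1.35 ± 0.42, adjusted p = 0.0443). Lrrc32 was low, at 1.63 CPM in KO IELp against 3.57 in control IELp, and so was Ctla4, at 1.40 against 3.67 CPM. The other 7 did not pass. Among them was Ikzf2, most of the summed level, at 355 against 379 CPM (-0.07 ± 0.07, adjusted p = 0.571). The median of the 10 was -0.49. Cd4 was at 1.99 ± 0.575 CPM against 7.42 ± 2.16 (-1.86 ± 0.28, adjusted p = 4.13e-04), and the part of such cells in the Tnfrsf18 difference was not tested. Fas was lower by -0.33 ± 0.10 (adjusted p = 0.0410), a call that ended in several alternatives: its adjusted p was 0.0654 without the filter on low counts, 0.0734 with the replicate number as a block, 0.214 in 1 fit of all 12 libraries and between 0.0571 and 0.155 without control IELp replicate 1 or 2 or any KO IELp library.

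With 1 receptor called higher and 2 called lower of 10, the members stood beside 13.1% of 14629 tested genes called, 6.48% higher and 6.58% lower. In 5 of 10 members the groups did not overlap, as in 29.7% of all genes tested. The median log2 difference was -0.08 over the members and -0.01 over all genes. The 7 receptors that did not pass had differences of 0.30 for Tnfrsf1a (adjusted p = 0.0596), 0.11 for Tnfrsf1b, 0.07 for Tnfrsf4, -0.05 for Cd27, -0.11 for Tnfrsf9, -0.12 for Tnfrsf26 and -0.50 ± 0.35 for Tnfrsf14. Without control IELp replicate 3, its lowest library, Tnfrsf9 passed the test at -0.17 (adjusted p = 0.0160), and in 1 fit of all 12 libraries Tnfrsf1a passed at 0.29 (adjusted p = 0.0458).

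Comparing control IELs with control IELp sets gut cells against thymic precursors of the same genotype, where stage, sort gate and tissue differ together. Tnfrsf1a was 5.03-fold higher in IELs, a log2 difference of 2.33 ± 0.09 (adjusted p = 4.95e-09). Tnfrsf9 was 2.83-fold lower (-1.50 ± 0.08, adjusted p = 3.44e-08), Cd27 3.01-fold lower (-1.59 ± 0.07, adjusted p = 1.05e-08) and Tnfrsf26 5.07-fold lower (-2.34 ± 0.13, adjusted p = 6.99e-08). Tnfrsf25 had 2 counts over the 3 IEL libraries against 51 in IELp. The ratio of IELp to IELs per library size was 28.3, with an exact 95% interval of 7.45 to 240.1 for counting error only, and the adjusted p was 5.33e-04.

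Tnfrsf18 was 1.26-fold lower in IELs (-0.33 ± 0.09, adjusted p = 0.00611). Tnfrsf14 was 1.96-fold higher (0.97 ± 0.29, adjusted p = 0.0134), though from few counts and with overlapping groups. Its adjusted p was 0.0537 and 0.0539 without control IELp replicate 1 and 3. In all 2 members were called higher and 5 lower of 10, where 64.8% of 14878 tested genes were called, 31.9% higher and 32.9% lower. Groups did not overlap for 7 of 10 members and for 70.9% of genes, so the members' shares were near those of all genes. The median log2 difference was -0.50 over the members and -0.01 over all genes.

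Fas, Tnfrsf1b and Tnfrsf4 did not pass between control IELs and control IELp. Fas had a log2 difference of 0.41 ± 0.18 (adjusted p = 0.0589), and without control IEL replicate 3 it was 0.62 (adjusted p = 2.36e-04). With all libraries it passed with DESeq2 (adjusted p = 0.0313), without the low-count filter (adjusted p = 0.0168), in 1 fit of all 12 libraries (adjusted p = 0.0185) and with the replicate block (adjusted p = 0.0432), but not with limma on the authors' values (adjusted p = 0.467 and 0.487 with an added 1 and 0.1). Tnfrsf1b had a fitted difference of 0.10 ± 0.05 (adjusted p = 0.119), although its CPM were lower in each IEL library than in each IELp library. It passed in opposite directions under alternatives: at 0.13 in 1 fit of all 12 libraries (adjusted p = 0.0275), and at -0.13 in limma on the authors' values with an added 0.1 (adjusted p = 0.0473, and 0.0504 with an added 1). In limma, which also leaves out the TMM scaling, the median of all genes moved by -0.23 with an added 0.1 and -0.20 with an added 1. Tnfrsf4 had a difference of -0.67 ± 0.45 (adjusted p = 0.211). Gut epithelial markers were 519 to 712 CPM in these IELs and 67.1 to 75.6 CPM in control IELp, with Krt8, Krt19, Krt20 and Fabp1 at 0 in the latter. Most of the control IELp sum came from Epcam, at 62.0 ± 4.72 CPM. Markers of double-positive thymocytes were 30.4 to 43.2 CPM in control IELp and under 1 CPM in IELs. B cell markers summed to 40.3 to 67.9 CPM in IELs and 19.8 to 22.3 in control IELp. Myeloid markers summed to 56.2 to 61.4 and 19.7 to 26.6 CPM in the same order. Those of NK and innate lymphoid cells summed to 383 to 420 and 772 to 898 CPM, with 1 of 6 tested called higher in IELs and 4 lower. The part of these cells in the receptor differences was not tested.

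KO spleen cells and control IELs passed the same gate, and genotype and tissue differ between them together. Tnfrsf25 had the widest difference of the 10 genes, with 3439 counts against 2, a ratio per library size of 1652 with an exact 95% interval of 457 to 13649.5 (adjusted p = 5.13e-09). Tnfrsf26 was 6.69-fold higher in KO spleen cells (2.74 ± 0.14, adjusted p = 1.25e-07), and Cd27 was 2.69-fold higher (1.43 ± 0.07, adjusted p = 9.96e-08). Tnfrsf1b was 2.64-fold lower (-1.40 ± 0.05, adjusted p = 1.29e-08), Tnfrsf9 1.51-fold lower (-0.60 ± 0.07, adjusted p = 4.86e-05) and Tnfrsf1a 1.47-fold lower (-0.55 ± 0.08, adjusted p = 2.81e-04). Tnfrsf14 was 2.13-fold lower (-1.09 ± 0.28, adjusted p = 0.00727).

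Tnfrsf18 was 1.24-fold lower in KO spleen cells than in control IELs (-0.31 ± 0.09, adjusted p = 0.0133). That call was lost on the authors' values with limma (-0.18, adjusted p = 0.101) and without KO spleen replicate 1 (adjusted p = 0.0559). Fas did not pass (-0.42 ± 0.18, adjusted p = 0.0715), and without control IEL replicate 3 its difference was -0.62 (adjusted p = 9.18e-04). With all libraries it passed with DESeq2 (adjusted p = 0.0457), without the low-count filter (adjusted p = 0.0259) and in 1 fit of all 12 libraries (adjusted p = 0.0221). Tnfrsf4 did not pass either (0.86 ± 0.44, adjusted p = 0.118), with 67 counts against 33, though it passed in limma with an added 1 (0.49, adjusted p = 0.0468). So 3 members were called higher and 5 lower of 10, where 58.2% of 14875 tested genes were called, 29.1% higher and 29.2% lower. For 9 of 10 members the groups did not overlap, as for 66.2% of all genes, and the median log2 difference was -0.36 over the members and 0.00 over all genes.

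Markers of other cell types were summed in the same groups. Those of B cells, 7 genes, came to 179 to 211 CPM in KO spleen cells against 40.3 to 67.9 in control IELs, where Ms4a1, Pax5 and Ebf1 were at 0. Most of it came from Cd22, at 100.02 ± 12.8 CPM in KO spleen cells and 5.39 ± 1.41 in control IELs, and Cd79b, at 63.8 ± 5.52 and 44.5 ± 14.5 CPM, while Ms4a1 was at 12.6 ± 0.973 CPM in KO spleen cells. The 10 myeloid markers summed to 50.9 to 82.3 CPM in KO spleen cells and 56.2 to 61.4 in control IELs, where Adgre1, C1qa, C1qb and Cd14 were at 0. Those near sums hold opposite differences, with 6 of 9 tested markers called higher and 2 lower in KO spleen cells: Lyz2 was at 12.3 ± 8.32 CPM against 0.0724 ± 0.125, and Itgam at 0.678 ± 0.0720 against 29.3 ± 0.929. The 8 markers of NK and innate lymphoid cells summed to 491 to 583 and 383 to 420 CPM, with Il1rl1 at 0 in both groups. The part of these cells in the levels of Cd27, Tnfrsf25 and Tnfrsf26 was not tested.

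**Figure D3:**
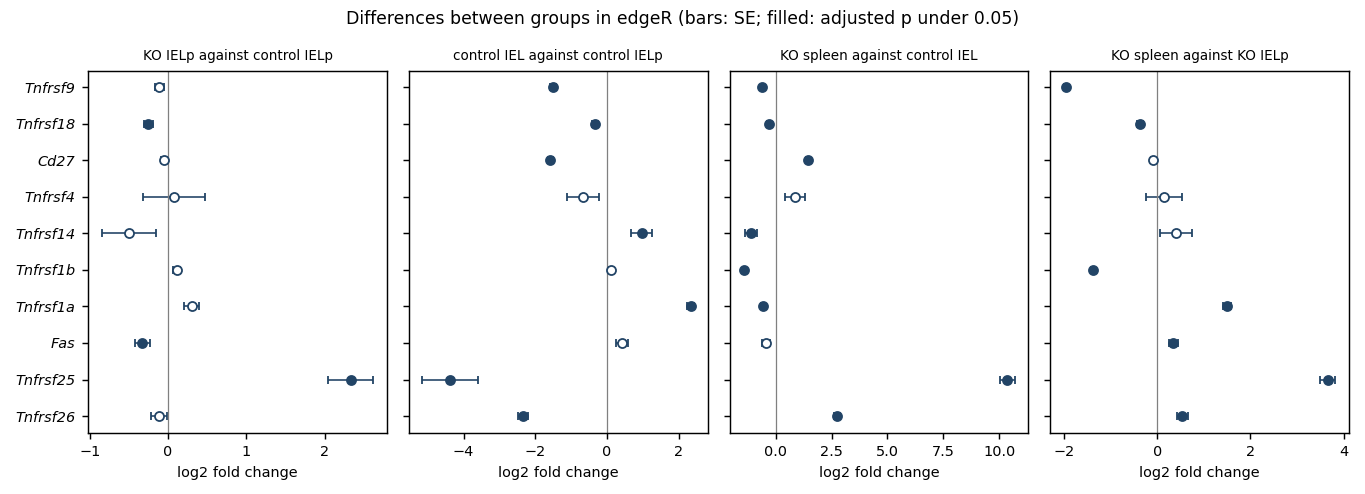
Log2 fold change of each of the 10 receptors in the 4 comparisons (points, edgeR) with SE (bars), filled where the adjusted p was under 0.05, each panel with its own horizontal scale. Between the IELp groups only Tnfrsf25, Tnfrsf18 and Fas are filled, and the fitted value of Tnfrsf25 in KO spleen cells against control IELs (10.36) rests on 2 counts in the control.

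KO spleen cells against KO IELp sets CD8αα cells against precursors within the KO, where stage, sort gate and tissue differ together. This difference and that between the control groups are called steps below, although descent of the CD8αα cells from these IELp was not tested. Tnfrsf25 was 12.7-fold higher in the spleen cells (3.66 ± 0.16, adjusted p = 9.55e-10), Tnfrsf1a 2.83-fold higher (1.50 ± 0.08, adjusted p = 6.76e-09), Tnfrsf26 1.45-fold higher (0.54 ± 0.11, adjusted p = 0.00147) and Fas 1.27-fold higher (0.35 ± 0.10, adjusted p = 0.0158). Tnfrsf9 was 3.90-fold lower (-1.96 ± 0.05, adjusted p = 2.01e-12), Tnfrsf1b 2.61-fold lower (-1.39 ± 0.04, adjusted p = 4.25e-11) and Tnfrsf18 1.29-fold lower (-0.37 ± 0.06, adjusted p = 2.78e-04). The Fas call was lost in 1 fit of all 12 libraries (adjusted p = 0.0827), on the authors' values with limma (adjusted p = 0.0830), and without KO IELp replicate 1 (adjusted p = 0.0631) or KO spleen replicate 2 (adjusted p = 0.0645).

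Markers of other cell types differed between KO spleen cells and KO IELp as well. The 7 B cell markers summed to 179 to 211 CPM against 17.2 to 21.2 in KO IELp, where Ms4a1 and Blnk were at 0, and all 5 that could be tested were called higher, with Cd22 at 100.02 ± 12.8 against 0.505 ± 0.230 CPM. Myeloid markers summed to 50.9 to 82.3 against 23.6 to 26.3 CPM, with 8 of 9 tested called higher and with Adgre1 and Cd14 at 0 in KO IELp. Markers of NK and innate lymphoid cells summed to 491 to 583 against 785 to 830.5 CPM, with 4 of 6 tested called higher and 1 lower and with Ncr1 and Il1rl1 at 0 in KO IELp. Eomes was at 92.2 ± 2.14 against 4.00 ± 0.770 CPM, and Kit was the one called lower (-1.60 ± 0.08, adjusted p = 5.13e-09). Double-positive thymocyte markers summed to 11.6 to 19.4 against 29.9 to 34.1 CPM, with Rag1, Rag2 and Ptcra at 0 in KO spleen cells. Gut epithelial markers summed to 14.0 to 17.0 against 67.1 to 69.2 CPM. Most of that KO IELp sum came from Epcam, at 56.0 ± 0.676 CPM, with Lgals4 at 9.42 ± 0.448 CPM and Krt19, Krt20, Fabp1 and Fabp2 at 0. The part of other cell types in the receptor differences was not tested.

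Cd27 had a log2 difference of -0.09 ± 0.05 between KO spleen cells and KO IELp (adjusted p = 0.154). Its CPM were lower in every spleen library, and on the authors' values with limma it passed at -0.20 (adjusted p = 0.00361). Tnfrsf14 (0.40 ± 0.35) and Tnfrsf4 (0.14 ± 0.39) did not pass. Of the 10 members, 4 were called higher and 3 lower, where 45.0% of 14880 tested genes were called, 22.6% higher and 22.4% lower. Groups did not overlap for 8 of 10 members and for 56.4% of genes. The median log2 difference was 0.24 over the members and -0.00 over all genes.

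Since the step in the KO and the step in the control share no library, they could be set against each other in 1 fit of all 12 libraries. The steps differed for 6 of 10 members, 3 with a positive and 3 with a negative difference, where 46.7% of 15757 tested genes were called, 24.2% positive and 22.5% negative. Tnfrsf25 went in opposite directions, up in the KO and down in the control, with a difference of 8.02 ± 0.62 between the steps (adjusted p = 2.60e-08), a fitted size that rests on the 2 counts in control IELs. Tnfrsf26 too was called lower in the control step and higher in the KO step, with a difference of 2.86 ± 0.18 (adjusted p = 1.73e-09). Cd27 fell in the control step and did not pass in the KO step, and the steps differed by 1.48 ± 0.09 (adjusted p = 8.84e-10). Tnfrsf1b did the reverse, with a fall in the KO step, no call in the control step when its 6 libraries were fitted alone (in the fit of all 12 libraries it was called higher, at 0.13 with an adjusted p of 0.0275) and a difference of -1.51 ± 0.07 (adjusted p = 2.67e-11).

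Tnfrsf9 and Tnfrsf1a moved in the same direction in both steps but by different amounts. Tnfrsf9 fell further in the KO step, by a difference of -0.49 ± 0.09 (adjusted p = 3.85e-04). Tnfrsf1a rose less in it, by a difference of -0.85 ± 0.12 (adjusted p = 1.60e-05). For Tnfrsf18, Fas, Tnfrsf14 and Tnfrsf4 the steps were not shown to differ, with differences of -0.06 ± 0.11, -0.09 ± 0.21, -0.59 ± 0.46 and 0.79 ± 0.61. The steps end in different tissues, gut for the control and spleen for the KO, so genotype and end tissue cannot be told apart here.

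**Figure D4:**
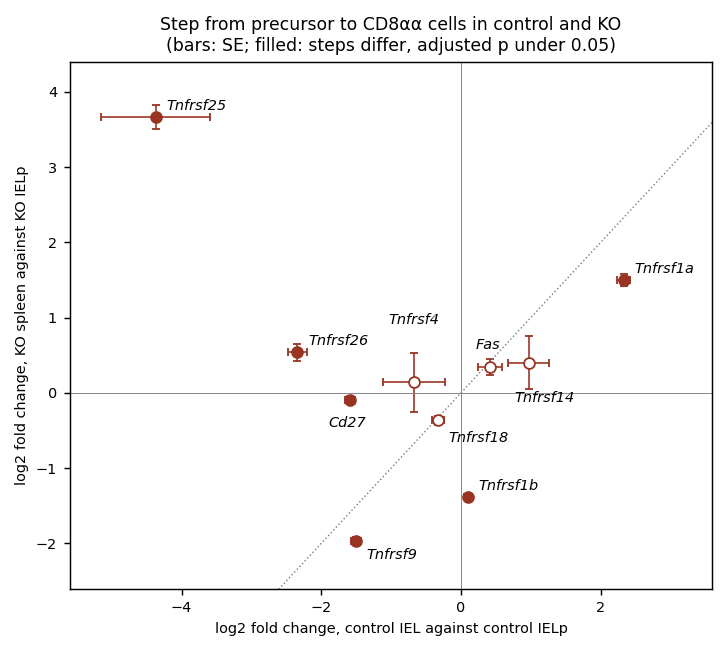
Log2 fold change of each receptor from IELp to CD8αα cells in control (horizontal, to gut IELs) and in KO (vertical, to spleen cells), with SE as bars, the dotted line marking equal steps and filled points those whose steps differed. Tnfrsf25 and Tnfrsf26 lie in the quadrant of a fall in control and a rise in KO, Cd27 near the horizontal axis and Tnfrsf1b near the vertical one.

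Genes with the most similar profiles were sought for the 4 receptors whose highest group mean was at least 4 times the lowest. Likeness was the root mean square difference of log2(CPM + 1), each gene centred on its own mean over the 12 libraries, among 9375 genes. For Tnfrsf9 these were Gypc (0.127), Slc16a3 (0.158) and Mmp11 (0.169), and for Tnfrsf1a they were Afmid (0.149), Lpxn (0.158) and Ubac2 (0.163). For Tnfrsf26 they were Rps19-ps6 (0.176), Slc44a1 (0.182) and Myo18a (0.183). For Tnfrsf25 they were Lrrn4 (0.687), Cbfa2t3 (0.688) and Pld4 (0.745). The measure is not scaled to the range of a profile, which was widest for Tnfrsf25. Its distances therefore cannot be compared with those of the other receptors. Gypc, the nearest to Tnfrsf9, was at 147 ± 6.63 CPM in control IELp, 138 ± 6.15 in KO IELp, 43.3 ± 3.55 in control IELs and 33.8 ± 6.05 in KO spleen cells.

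Ligands of the 10 receptors were mostly low in the sorted cells, and these pairs were picked for the receptors with their values in view. Tnfsf15, the ligand of Tnfrsf25, was at most 0.262 CPM in any group mean, Tnfsf18, the ligand of Tnfrsf18, had no count in any library, and Cd70, the ligand of Cd27, was at most 0.0227 CPM. Tnfsf9, the ligand of Tnfrsf9, was between 1.63 and 5.75 CPM in the group means, and Tnfsf4, the ligand of Tnfrsf4, between 0.167 and 1.14 CPM. Lta, whose product binds the receptors for TNF, was between 0.765 and 19.1 CPM. Tnf was at 0.957 ± 0.555, 0.166 ± 0.159, 0.636 ± 0.208 and 0.376 ± 0.519 CPM in control IELp, KO IELp, control IELs and KO spleen cells. Fasl, the ligand of Fas, stood out with 707 ± 23.6 CPM in control IELs, while control IELp had 9.79 ± 1.51 and KO spleen cells 15.99 ± 1.23 CPM. Its log2 difference was 6.41 ± 0.11 between control IELs and control IELp (adjusted p = 9.95e-12) and -5.58 ± 0.08 in KO spleen cells against control IELs (adjusted p = 5.07e-11).

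Tnfsf14, which signals through Tnfrsf14, was at 8.57 ± 1.05 CPM in control IELp and 3.91 ± 0.890 in KO IELp, a log2 difference of -1.10 ± 0.21 (adjusted p = 0.00232). It was at 7.60 ± 0.814 CPM in control IELs and 17.0 ± 0.869 in KO spleen cells, 2.22 ± 0.18 above KO IELp on the log2 scale (adjusted p = 3.58e-07). Of the other binding partners of HVEM, Btla was at 31.8 ± 1.22 CPM in control IELp, 0.662 ± 0.498 in control IELs and 44.6 ± 4.94 in KO spleen cells. Cd160 was at 495 ± 22.4 CPM in control IELp, 679.9 ± 45.1 in control IELs and 673 ± 11.9 in KO spleen cells, and between the IELp groups neither passed the test.

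Of 18 other receptor genes of the family, 9 could be tested between KO and control IELp and 8 in each other pair of groups. Between the IELp groups 1 was called higher, Tnfrsf13b (TACI), at 117 ± 4.58 against 93.6 ± 2.38 CPM (adjusted p = 0.00275), and 1 lower, Tnfrsf21 (DR6), at 18.3 ± 0.0419 against 26.8 ± 5.68 CPM (adjusted p = 0.0257). In control IELs against control IELp 1 was higher and 5 were lower. In KO spleen cells against control IELs 5 were higher and 1 was lower, and against KO IELp 3 were higher and 1 was lower. Over all genes 13.1%, 64.8%, 58.2% and 45.0% were called in these 4 comparisons. Tnfrsf13b was at 28.4 ± 4.13 CPM in control IELs and 107 ± 2.00 in KO spleen cells, so its low group was that of Cd27 and Tnfrsf26. Relt was higher in control IELs, at 66.9 ± 8.17 CPM, than in control IELp, at 54.8 ± 3.51 CPM (0.52 ± 0.10, adjusted p = 0.00120), and it reached 89.9 ± 2.60 CPM in KO spleen cells. The medians of the tested genes were -0.13, -1.09, 1.14 and 0.44 on the log2 scale in the 4 comparisons, beside -0.01, -0.01, 0.00 and -0.00 over all genes.

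A list of 16 genes held those of TRAF proteins and death domain adaptors together with Casp8, Cflar, Birc2, Birc3, Ripk3, Siva1 and Daxx. All were tested, and the test called 2 higher and 4 lower between KO and control IELp. Traf1, which binds TNFR2 and 4-1BB with TRAF2, was lower in KO IELp, at 21.5 ± 2.54 against 37.9 ± 1.86 CPM (-0.80 ± 0.11, adjusted p = 1.85e-04), and Tradd, the adaptor of TNFR1 and DR3, at 57.1 ± 1.88 against 76.4 ± 4.48 CPM (-0.40 ± 0.08, adjusted p = 0.00403). Traf4 was higher in KO IELp, at 95.8 ± 7.98 against 69.9 ± 4.93 CPM (0.48 ± 0.08, adjusted p = 0.00145). In control IELs against control IELp 9 were higher and 1 was lower, with Traf1 at 145 ± 7.79 CPM in IELs (2.17 ± 0.08, adjusted p = 2.65e-09). In KO spleen cells 3 were higher and 7 lower than in control IELs, and 8 higher and 1 lower than in KO IELp. The shares called higher over all genes were 6.48%, 31.9%, 29.1% and 22.6% in the 4 comparisons, and those called lower 6.58%, 32.9%, 29.2% and 22.4%. The medians of the list were -0.16, 0.24, -0.18 and 0.31 on the log2 scale in these 4 comparisons, beside -0.01, -0.01, 0.00 and -0.00 over all genes.

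Of 20 NF-κB pathway genes, all tested, 1 was called higher and 6 lower in KO IELp than in control IELp, where 6.48% of all genes were higher and 6.58% lower. Rela, which encodes the p65 subunit, was lower, at 116 ± 5.29 against 193 ± 3.91 CPM (-0.71 ± 0.06, adjusted p = 1.40e-06), and so was the inhibitor gene Nfkbid, at 20.9 ± 2.34 against 33.3 ± 2.64 CPM (-0.65 ± 0.11, adjusted p = 0.00133). In control IELs 14 were higher and 3 lower than in control IELp, where 31.9% and 32.9% of all genes were. Tnfaip3, which encodes the NF-κB feedback inhibitor A20, was at 1142 ± 165 CPM in control IELs against 118 ± 15.4 in control IELp (3.50 ± 0.13, adjusted p = 2.21e-09), while Nfkb1 was at 64.3 ± 4.68 against 242 ± 6.47 CPM (-1.68 ± 0.08, adjusted p = 1.10e-08). In KO spleen cells 4 were higher and 9 lower than in control IELs (29.1% and 29.2% of all genes), and 13 higher and 2 lower than in KO IELp (22.6% and 22.4% of all genes). Tnfaip3 was at 129.9 ± 2.86 CPM in KO spleen cells and 122 ± 6.07 in KO IELp (0.21 ± 0.06, adjusted p = 0.0138). The medians of the 20 genes were -0.11, 0.65, -0.09 and 0.27 on the log2 scale in the 4 comparisons, and those of all genes were again -0.01, -0.01, 0.00 and -0.00.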

How the data were processed

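RNA of 40000 sorted cells was purified on RNeasy Plus Micro columns, copied with the SMARTer Ultra Low Input kit, made into Nextera XT libraries and read in 76 bp pairs, per the labels' protocols. Reads were handled with STAR, HTSeq, Trimmomatic, bcl2fastq 2.17 and DESeq2 on build mm10, per the submitters' processing notes. The gene annotation used, and whether counting used strand, were not given in the sources used here. The authors deposited raw counts per gene symbol, with 48663 gene rows and 5 summary rows that hold 58.8% to 61.0% of all reads and were left out. A second table deposited by the authors, named FPM, holds CPM of the gene total and gives the counts back to within 8.1e-05.

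For each pair of groups, its 6 libraries were tested on the counts with edgeR 4.0.16 in R 4.3.3 (quasi-likelihood, 2-sided, filterByExpr, TMM), with Benjamini-Hochberg adjustment over all genes tested and a threshold of 0.05. All 10 receptors passed the filter in each comparison. The steps in KO and control were compared by an interaction contrast in 1 fit of all 12 libraries. Printed levels are CPM without TMM factors. SEs are the log2 fold change over the square root of F. The code was tested on simulated counts in which 200 genes were changed and all others had equal means between groups. Many more genes were called in the data, so the simulated rates need not hold there. Of 1.5-fold changes, 29.9% (interaction contrast) to 62.7% (KO spleen cells against KO IELp) were called in the right direction. False calls made up 4.67% (control IELs against control IELp) to 8.87% (interaction contrast) of the calls, and 6.59% between the IELp groups. Comparisons that share a group (control IELp, KO IELp, control IELs or KO spleen cells) share its libraries and are not independent. Exon lengths and positions came from GENCODE mouse release 21, and promoter windows from RefSeq.

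The difference of each receptor and the counts of receptors and of all genes called were recomputed, and those of other genes and lists were not, without each library in turn, with limma 3.58.1 on log2 of the CPM plus 1 or plus 0.1, in 1 fit of all 12 libraries, with replicate number as a block, without the low-count filter, with DESeq2 1.42.0 and with median-of-ratios size factors in edgeR. The members and gene lists were chosen with earlier results of these data known. Besides the 10 receptors, up to 4 genes per list and comparison were named by smallest adjusted p among those called with at least 10 CPM, and a few others after their values were seen: the ligands of the receptors, genes beside them, Traf4, Tradd and the markers given as checks. Tnfrsf25 ratios carry exact 95% intervals from counts, which cover counting error only, since reads carry no molecular identifiers. The B cell list leaves out 1 marker gene, which is not reported here.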

Additional observations from a re-analysis of the deposited data

Results flagged for a closer look

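For 6 of the 10 receptors the step from IELp to CD8αα cells differed between KO and control by the interaction test of edgeR, in log2 units of the KO step minus the control step. The difference was 8.02 for Tnfrsf25 (adjusted p = 2.60e-08), 2.86 for Tnfrsf26 (adjusted p = 1.73e-09) and 1.48 for Cd27 (adjusted p = 8.84e-10), all higher in the KO step. It was -1.51 for Tnfrsf1b (adjusted p = 2.67e-11), -0.85 for Tnfrsf1a (adjusted p = 1.60e-05) and -0.49 for Tnfrsf9 (adjusted p = 3.85e-04), all lower in the KO step. The KO step ends in spleen and the control step in gut, so genotype and tissue cannot be told apart in any of them. With 46.7% of all genes called in the same test, 6 of 10 is not far from the background.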

How the results depend on the processing

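Over all receptors and comparisons, 653 alternative values kept their direction and their side of the threshold, 19 lost the call, 15 gained one and 13 changed sign. Leaving out single libraries, the number of receptors called between the IELp groups ranged from 1 (without KO IELp replicate 2) to 4, and the number of all genes from 1239 to 1810 against 1911 with all libraries (1270 when control IELp replicate 2 was left out, 1239 for KO IELp replicate 2 and 1265 for KO IELp replicate 3). None of the sign changes was of a receptor that had passed. Over the libraries left out, Tnfrsf4 ranged from -0.13 to 0.30 between the IELp groups and from -0.054 to 0.26 in KO spleen cells against KO IELp. In the difference between the steps, Tnfrsf18 ranged from -0.12 to 0.048 and Fas from -0.29 to 0.068 in the same way. With limma and an added 1 or 0.1, Tnfrsf18 was 0.093 in both, Fas 0.078 and 0.082, and Tnfrsf1b in control IELs against control IELp -0.13 in both. The cause was not tested.

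Limma on the authors' values changes the test and leaves out TMM scaling together. With an added 1 and 0.1 it moved the median of all genes by -0.20 and -0.23 in control IELs against control IELp, and 34.7% and 34.5% of calls were higher against 49.2%. In KO spleen cells against KO IELp that share was 35.7% in both against 50.3%, and between the steps 61.4% and 62.3% against 51.8%. With the replicate number as a block, 2 receptors were called between the IELp groups (Fas no longer), 8 in control IELs against control IELp (Fas too, adjusted p = 0.0432), and 8, 7 and 6 in the others; it changed no other receptor's call. Same-numbered libraries of different groups deviated together with correlations of -0.026 to 0.065 (median 0.014). For libraries with different numbers these were -0.063 to 0.029 (median -0.0056). With 3 libraries per group, such values cannot settle whether the numbers pair libraries. Tnfrsf4 and Tnfrsf14 had few counts, which limits what could be seen in them.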

Other observations

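Several TNF family ligands whose receptors are not among the 10 also differed between groups. Ltb, which encodes the membrane anchor of lymphotoxin, was at 307 ± 23.5 CPM in control IELp and 425 ± 25.0 in KO IELp (0.49 ± 0.06, adjusted p = 7.69e-05), and at 96.0 ± 3.51 in control IELs and 787 ± 47.7 in KO spleen cells (2.91 ± 0.07, adjusted p = 4.93e-10). Tnfsf8, the ligand of CD30, was lower in KO IELp than in control IELp, at 135 ± 4.91 against 180.4 ± 10.9 CPM (-0.40 ± 0.06, adjusted p = 7.30e-04). Cd40lg was lower as well, at 8.75 ± 0.430 against 14.9 ± 1.16 CPM (-0.74 ± 0.14, adjusted p = 0.00249). Tnfsf13b, which encodes BAFF, had no count in control IELp and 25.4 ± 1.81 CPM in control IELs, with 2 counts in all in KO spleen cells. Of 17 ligand genes, 10 were tested between the IELp groups, with 1 called higher and 3 lower, and 12 in control IELs against control IELp, with 4 higher and 6 lower. Over all genes 13.1% and 64.8% were called in these 2 comparisons. The medians of the tested ligand genes were -0.28 and -0.88 on the log2 scale, beside -0.01 over all genes in both.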
